A study of Hyphopichia burtonii and Hyphopichia pseudoburtonii with 16 samples.

Results

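The transcriptome of the yeast Hyphopichia burtonii 30 min after salt was compared with that of the same culture conditions just before salt. H. burtonii is a filamentous yeast that grows on starchy foods. The cells were wild-type strain KJJ43, isolated from Nuruk, a Korean starter used to brew rice wine. They had grown in YPD (yeast extract, peptone and dextrose) from an OD600 of 0.6 to 2.0 when the 0 min sample was taken. YPD holding 2 M NaCl was then poured in at equal volume, so that the 30 min cells had spent that time in 1 M NaCl. Each time had 2 libraries of total RNA, and the same course was sampled at 5 and 15 min, giving 8 libraries of H. burtonii among the 16 of the whole series. The other 8, from H. pseudoburtonii handled alike, enter only the last comparison below. The 30 min cells received fresh medium together with salt and no course without salt was sampled, so an effect of the medium cannot be told apart from that of the salt. The labels do not say whether the paired libraries at each time were grown apart, and p-values therefore measure only the spread between these samples. The members were all genes of the deposited table with at least 1 FPKM in 2 or more of the 8 libraries, 6047 of 6115 genes on 8 chromosomes. FPKM are fragments scaled to transcript length and to the number of mapped reads, so levels of different genes can be set side by side.

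Salt draws water out of a yeast cell, and sodium that leaks in is toxic. In other yeasts the Hog1 kinase pathway answers the loss of water, mainly by making and keeping glycerol or another small polyol inside the cell, while sodium pumps and antiporters of the plasma membrane push the ion out. Growth genes are usually held back at first and return once the cell has regained volume.

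The 0 and 30 min libraries differed in more than single genes. Both 0 min libraries had more genes listed at 0 (170 and 160) than the 30 min libraries (91 and 67), and a larger part of their summed FPKM lay in the 10 most abundant genes (18.9 and 16.9 percent against 9.9 and 11.5 percent). Depth is unknown. A rough estimate of relative depth from the lowest values was 0.541 and 0.464 at 0 min and 0.599 and 0.783 at 30 min, on a scale where the deepest library is 1. Replicates correlated across genes at r = 0.955 at 0 min and 0.983 at 30 min, which describes libraries and not independent genes. In bulk samples, fewer cells of a state and less RNA per cell cannot be told apart. Whether the 0 min libraries' depth and composition had a part in the results was not tested.

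Of the 6047 genes, limma called 2907 (48.1 percent) at an adjusted p under 0.05, with 2236 higher (37.0 percent) and 671 lower (11.1 percent) at 30 min. At least 2-fold, 1628 genes were higher and 487 lower, and at least 4-fold 387 and 191. Larger changes were nearly even, with 92 higher and 83 lower at 8-fold or more, 33 and 38 at 16-fold or more and 20 and 16 at 32-fold or more. The median log2 change over all genes was 0.56 as deposited and 0.07 after median-ratio or quantile scaling of the libraries, and the calls then split into 1022 higher and 1093 lower, or 983 higher and 1014 lower. List medians are therefore set beside that of all genes. Each pair of counts is followed in brackets by the pair after median-ratio scaling, with the genes called higher first and those called lower second. For every called gene, both 30 min libraries lay on the same side of both 0 min libraries. Over all 6047 genes, called or not, both 30 min libraries lay above both 0 min libraries for 3479 and below them for 1094. Without 30 min replicate 1 the calls numbered 1783 and without 30 min replicate 2 they numbered 1880. The members of 50 gene lists are described by these counts, without a test of the list. All changes below are log2 changes of FPKM + 1 from 0 to 30 min unless another pair of times is named, with their standard errors (SE), and a gene is said to have risen or fallen only where it passed the limma test.

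**Figure D1:**
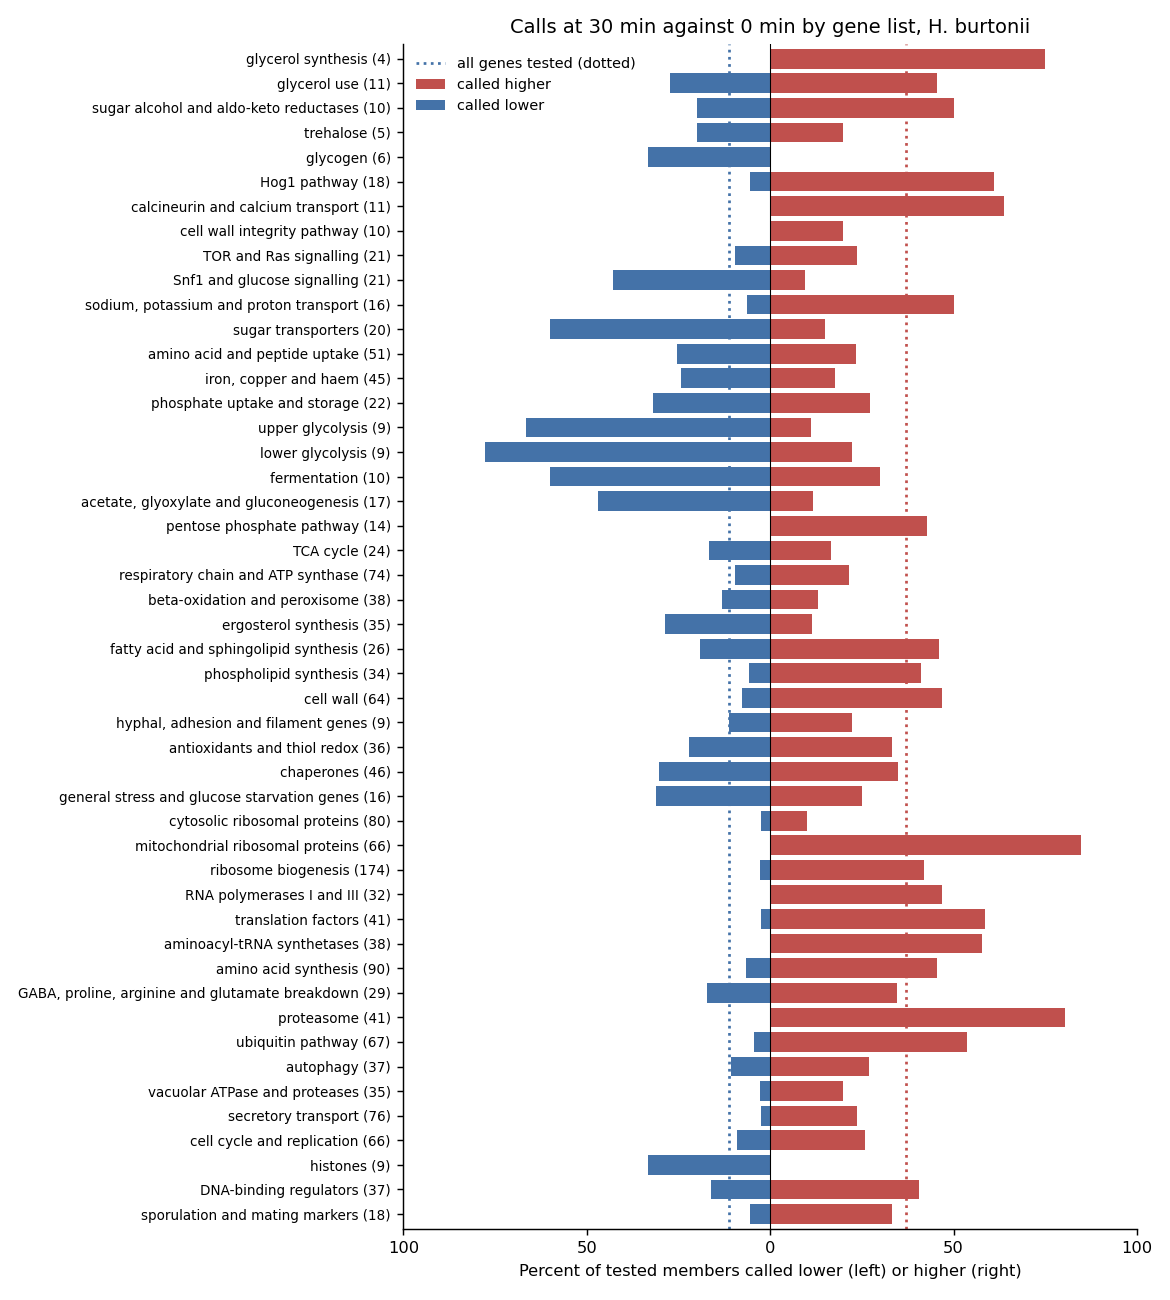
Percent of the tested members of each gene list called higher (red, to the right) or lower (blue, to the left) at 30 min against 0 min in H. burtonii, with the number of tested members in brackets. Dotted lines mark all genes tested, 37.0 percent higher and 11.1 percent lower. All values are as deposited, without scaling of the libraries. Mitochondrial ribosomal proteins and the proteasome reach furthest to the right among lists of more than 10 genes. Lower glycolysis, upper glycolysis, fermentation and sugar transporters reach furthest to the left.

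Polyol genes were among the largest rises. Sorbose reductases turn sugars into sugar alcohols, and the homolog SOU2 (TBIG000257, chromosome 1, 511614 to 512474) had 21.9 and 34.8 FPKM at 0 min and 829 and 919.6 FPKM at 30 min (log2 change 4.93, SE 0.27, adjusted p = 1.5e-05). Both 30 min libraries stood more than 10-fold above both 0 min libraries. Its relative SOU1 (TBIG000255) was already abundant and went from 593 and 648 to 2821 and 3278 FPKM (log2 change 2.29, SE 0.16). A second gene named SOU1 fell (log2 change -2.07). An arabinose dehydrogenase gene, ARA1 (TBIG002949), went from 31 and 25.3 to 318 and 411 FPKM (log2 change 3.64, SE 0.21). The other gene named ARA1 rose by more (log2 change 7.38). Of the 10 sugar alcohol and aldo-keto reductase genes 5 rose and 2 fell (5 and 2 after scaling). Among the 2 that fell was XYL2, xylitol dehydrogenase, at 1138 and 1148 and then 309.6 and 318 FPKM (log2 change -1.86, SE 0.18). Together the 10 genes held 0.289 and 0.291 percent of the summed FPKM at 0 min and 0.93 and 1.06 percent at 30 min, and the 4 glycerol synthesis genes 0.228 and 0.236 and then 1.01 and 1.07 percent. No overlap between the times is seen in either share, although with 2 libraries against 2 an exact two-sided permutation test cannot give a p below 0.333.

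Some genes that take glycerol apart rose as well. Glycerol kinase, GUT1, had 587 and 590.0 FPKM at 0 min and 1397 and 1426 FPKM at 30 min (log2 change 1.26, SE 0.16). The mitochondrial glycerol-3-phosphate dehydrogenase gene gut2 went from 169 and 235 to 994 and 811 FPKM (log2 change 2.16, SE 0.23). In the glycerol use list 5 of 11 genes rose and 3 fell (4 and 5 after scaling). Trehalose and glycogen, the storage sugars, did not share this pattern: 1 of 5 trehalose genes rose and 1 fell (1 and 2), and of 6 glycogen genes 0 rose and 2 fell (0 and 3). Glycogen phosphorylase, GPH1, which releases glucose units from glycogen, had 199 and 317 FPKM at 0 min and 56.1 and 55.3 FPKM at 30 min (log2 change -2.15, SE 0.25).

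The pentose phosphate pathway, which makes NADPH and pentoses from glucose 6-phosphate, had 6 of 14 genes higher and 0 lower (6 and 1 after scaling). One transketolase gene, TKT (TBIG005019, chromosome 6, 687449 to 689485), stood at 75.4 and 57.6 FPKM at 0 min and 6289 and 7014 FPKM at 30 min (log2 change 6.63, SE 0.23, adjusted p = 1.9e-06). At 81.2 and 82.5 FPKM it had not left the 0 min level by 5 min, and it reached 2321 and 1565 FPKM at 15 min. The lactonase gene SOL3 went from 116 and 131 to 501 and 490.2 FPKM (log2 change 2.0, SE 0.16), the epimerase gene RPE1 from 481 and 435 to 1239 and 1077 FPKM (log2 change 1.34, SE 0.16), and the transaldolase gene tal1, outside that list, from 1922 and 2729.9 to 5866 and 5131 FPKM (log2 change 1.26, SE 0.22). The pathway's share of summed FPKM was 0.295 and 0.384 percent at 0 min and 1.17 and 1.09 percent at 30 min. The list's median, however, lay within 0.05 of that of all genes, and 8 of its members were not called.

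The shunt that passes glutamate through GABA (gamma-aminobutyrate) to succinate rose at each of its enzymes. Glutamate decarboxylase, GAD1, had 22.9 and 32.6 FPKM at 0 min and 368 and 332 FPKM at 30 min (log2 change 3.63, SE 0.21, adjusted p = 1.7e-05). GABA transaminase, UGA1, went from 14.6 and 20.9 to 266 and 229.9 FPKM (log2 change 3.75, SE 0.22), and succinate-semialdehyde dehydrogenase, UGA2 (TBIG002647), from 35.1 and 35.7 to 167 and 182 FPKM (log2 change 2.27, SE 0.2). As for every called gene, both 30 min libraries of these 3 enzymes were clear of the 0 min values, which adds nothing to the calls. The wider list of GABA, proline, arginine and glutamate breakdown was mixed, with 10 of 29 genes higher and 5 lower (6 and 7 after scaling). The allantoin genes DAL2, which went from 174 and 161 to 33.6 and 29.3 FPKM (log2 change -2.38, SE 0.19), and DAL5, from 37 and 40.4 to 6.15 and 8.19 FPKM (log2 change -2.29, SE 0.25), were among those that fell. Another gene named DAL5 changed by -0.34 and was not called. The breakdown list had 2 lower without 30 min replicate 2 and 3 lower without either 0 min library or either 5 min library or 30 min replicate 1.

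Invertase, INV (TBIG001367, chromosome 1, 2736939 to 2738462), which splits sucrose, was another large rise, from 47.5 and 55.7 FPKM to 1775 and 1602 FPKM (log2 change 5.01, SE 0.18, adjusted p = 2.1e-06). A peroxiredoxin-like gene that the table names PMP20_LIPKO went from 93.3 and 59.5 to 3704 and 5315 FPKM (log2 change 5.88, SE 0.27). The esterase-like gene vrdA was listed at 0 in both 0 min libraries and had 38.6 and 39.7 FPKM at 30 min. MTLA1, a mating-type-like gene, had 0 and 1.65 FPKM at 0 min and 83.3 and 116 FPKM at 30 min, most of it gained after 15 min (13.9 and 10.4 FPKM).

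**Figure D2:**
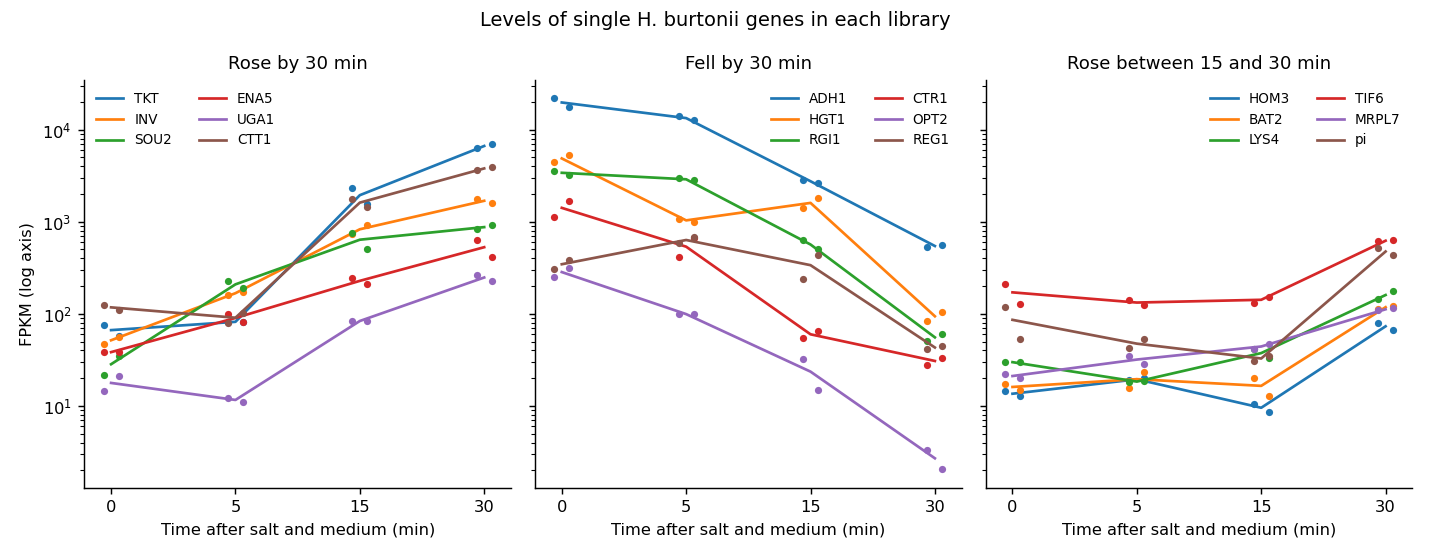
FPKM on a log axis in each of the 8 H. burtonii libraries (points) against time, with lines through the means of each time, for 6 genes that rose by 30 min, 6 that fell and 6 that rose between 15 and 30 min. Copies of a name shown are TBIG005019 (TKT), TBIG001367 (INV), TBIG001730 (ENA5), TBIG002724 (ADH1) and TBIG006104 (HGT1). The rising genes sit apart from 0 min at 15 min already, whereas HOM3, BAT2, LYS4, TIF6, MRPL7 and pi have their step between 15 and 30 min.

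Ion transport and the signalling genes changed by less than the polyol genes, apart from the sodium pumps. Among genes of sodium, potassium and proton transport 8 of 16 rose and 1 fell (6 and 2 after scaling). ENA5 encodes a sodium-exporting ATPase and is present in several copies. The copy TBIG001730 had 38.1 and 38.6 FPKM at 0 min and 641 and 417 FPKM at 30 min (log2 change 3.72, SE 0.24), and its neighbour TBIG001727 had 11.7 and 8.41 and then 188 and 135 FPKM (log2 change 3.88, SE 0.24). No source states how shared reads were assigned among such copies, and the level of any 1 copy is uncertain. The proton pump gene PMA1, whose gradient drives antiporters, went from 363 and 318 to 970.3 and 751 FPKM (log2 change 1.33, SE 0.2).

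Of the calcineurin and calcium list 7 of 11 genes rose and 0 fell (3 and 0 after scaling). MID1, a stretch-activated calcium channel of the plasma membrane, had 36.4 and 35.7 FPKM at 0 min and 97.9 and 87.9 FPKM at 30 min (log2 change 1.34, SE 0.18). The vacuolar calcium pump gene PMC1 had 14.8 and 18 FPKM at 0 min, 147 and 215 FPKM at 15 min and 57.3 and 49.7 FPKM at 30 min (log2 change 1.65, SE 0.23). PMC1 was thus above its starting level at 30 min and below its 15 min level (-1.72 from 15 to 30 min, adjusted p = 0.0033). The Hog1 pathway had 11 of 18 genes higher and 1 lower (3 and 1 after scaling), a count that rests on scaling and on single libraries. The Hog1 pathway list had 5 higher without 30 min replicate 1, 6 higher without 5 min replicate 2 or 30 min replicate 2 and 7 higher without 0 min replicate 1 or 5 min replicate 1. Its adaptor gene STE50 went from 10.9 and 7.07 to 32.9 and 53 FPKM (log2 change 2.12, SE 0.29) and the phosphatase gene PTP3, which acts on Hog1 in budding yeast, from 6.71 and 11.7 to 32.9 and 31.4 FPKM (log2 change 1.74, SE 0.37). The lone fall was MSN4, a transcription factor of the general stress response in budding yeast, with 33.6 and 45.6 FPKM at 0 min and 6.58 and 9.5 FPKM at 30 min (log2 change -2.17, SE 0.27, adjusted p = 0.00062). RLM1, the transcription factor of the wall integrity pathway, went from 6.51 and 3.98 to 27.1 and 31.3 FPKM (log2 change 2.3, SE 0.26), and 2 of the 10 genes of that pathway rose and 0 fell (1 and 1 after scaling). In TOR and Ras signalling 5 of 21 rose and 2 fell (3 and 2 after scaling). The TOR and Ras signalling list had 3 higher without 30 min replicate 1, and 0 lower without 30 min replicate 2. The phosphodiesterase gene PDE2, which breaks down cyclic AMP, was among the risers at 1.76 and 6.93 and then 24.7 and 29.9 FPKM (log2 change 2.59, SE 0.48), as was the cyclic AMP-dependent kinase gene TPK2 at 41.1 and 54.3 and then 159 and 191 FPKM (log2 change 1.86, SE 0.2).

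Lower glycolysis and fermentation, the main route from sugar to alcohol, lost most of their share of transcript. The 9 lower glycolysis genes held 9.95 and 9.32 percent of summed FPKM at 0 min and 2.29 and 2.3 percent at 30 min, and the 10 fermentation genes 5.86 and 5.62 and then 0.73 and 0.731 percent. Without the 10 most abundant genes of the table the fermentation share was 3.13 and 2.99 and then 0.644 and 0.637 percent. Upper glycolysis moved less, from 2.58 and 2.83 to 2.02 and 1.89 percent, but without the 10 most abundant genes of the table it went from 1.74 and 1.73 to 0.748 and 0.795 percent. By calls, 2 lower glycolysis genes rose and 7 fell (2 and 7 after scaling), 3 fermentation genes rose and 6 fell (3 and 6), and 1 of 9 upper glycolysis genes rose and 6 fell (0 and 7). Phosphoglycerate kinase, PGK1, had 12774 and 10559 FPKM at 0 min and 2292 and 2343 FPKM at 30 min (log2 change -2.33, SE 0.18). Phosphofructokinase, the committed step, fell in both subunits, with PFK1 at 1391 and 1713 and then 272 and 239 FPKM (log2 change -2.6, SE 0.19) and PFK2 (TBIG001151) at 1522 and 1614 and then 409 and 426 FPKM (log2 change -1.91, SE 0.18). Glucokinase, GLK1, went from 715 and 1183 to 189 and 183 FPKM (log2 change -2.3, SE 0.26).

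Single enzymes of the same steps went the other way. Enolase occurs as ENO2, which had 11002 and 10419.9 FPKM at 0 min and 1772 and 1928 FPKM at 30 min (log2 change -2.53, SE 0.15), and as ENO1, which had 68.1 and 89.7 and then 1213 and 1166 FPKM (log2 change 3.91, SE 0.19, adjusted p = 9.3e-06). The levels of both enolases were thus far apart at 0 min and of one order at 30 min. Pyruvate decarboxylase, PDC1 (TBIG003252), went from 166 and 171 to 1652 and 1917 FPKM (log2 change 3.39, SE 0.17). The mitochondrial aldehyde dehydrogenase gene ALD5 (TBIG006054) went from 24.6 and 18.4 to 896 and 1108 FPKM (log2 change 5.48, SE 0.21), which makes acetate from the acetaldehyde that PDC1 yields. The alcohol dehydrogenase that uses acetaldehyde instead, ADH1, fell in both of its abundant copies. TBIG003749 held 47505 and 42565 FPKM at 0 min, the highest values of any gene, and 1808 and 2019.8 FPKM at 30 min (log2 change -4.56, SE 0.18).

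**Figure D3:**
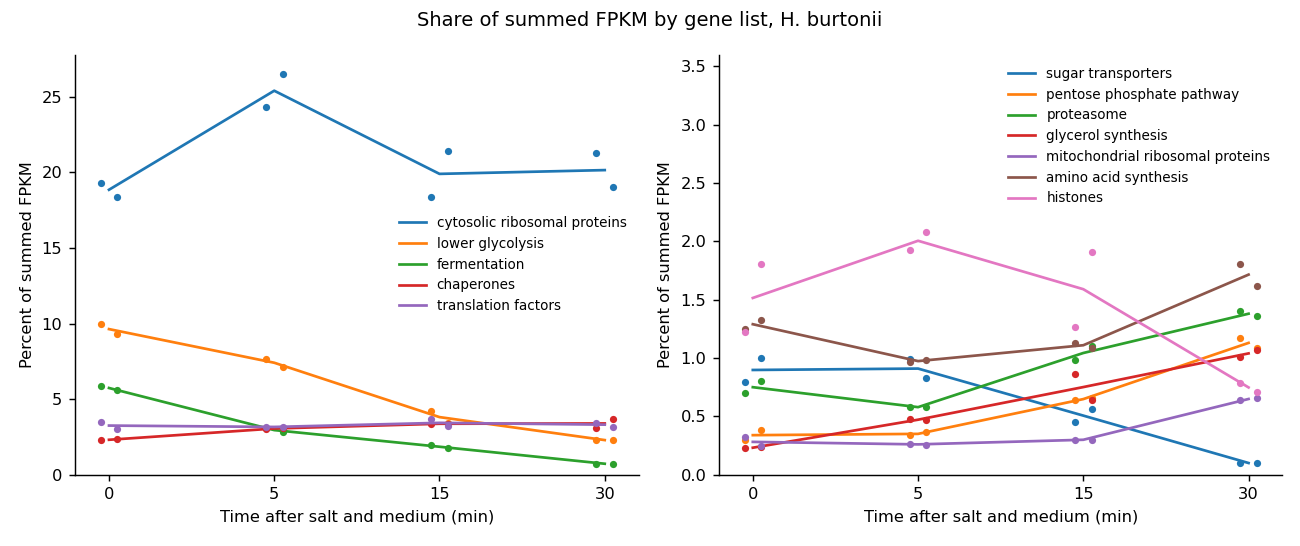
Percent of each library's summed FPKM held by gene lists (points for the 2 libraries of each time, lines through their means), with large shares on the left, small ones on the right and the 4 times spaced evenly. Lower glycolysis and fermentation drop at each harvest to 2.29 and 2.3 and 0.73 and 0.731 percent at 30 min, while the pentose phosphate pathway and glycerol synthesis climb to 1.17 and 1.09 and 1.01 and 1.07 percent.

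Sugar transporters also lost most of their share of transcript. The 20 sugar transporter genes held 0.798 and 0.998 percent of summed FPKM at 0 min, 0.45 and 0.564 percent at 15 min and 0.104 and 0.0976 percent at 30 min, with 3 members higher and 12 lower (1 and 13 after scaling). The sugar transporter list had 1 higher without 30 min replicate 1. The arabinose symporter araE (TBIG003209) went from 1185 and 1009 to 81.6 and 78.6 FPKM (log2 change -3.75, SE 0.29), and the lactose permease LAC12 from 96.3 and 156 to 3.91 and 0.821 FPKM (log2 change -5.37, SE 0.57). Of 4 genes named araE 1 rose and 3 fell (log2 changes of -4.76 to 1.19). The 4 genes named HGT1 likewise held 1 rise and 3 falls (log2 changes of -5.69 to 1.16). Genes that sense glucose or act in its repression also held more falls than rises: 2 of 21 Snf1 and glucose signalling genes rose and 9 fell (0 and 11 after scaling). REG1, which directs the phosphatase that keeps Snf1 off in budding yeast, had 306 and 385 FPKM at 0 min, 592 and 675 FPKM at 5 min and 41.2 and 44.9 FPKM at 30 min (log2 change -2.97, SE 0.28, adjusted p = 0.00021). This gene therefore fell only after a higher level at 5 min. A second gene named REG1 changed by 0.66 and was not called. The glucose repressor gene MIG1 had 60.9 and 47.3 and then 16.9 and 19.5 FPKM (log2 change -1.51, SE 0.23), and STD1, a partner of the glucose sensors, 128 and 117 and then 42.3 and 41.1 FPKM (log2 change -1.53, SE 0.16).

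Genes for growth on acetate and other non-sugar carbon did not rise in place of the sugar genes. Of 17 acetate, glyoxylate and gluconeogenesis genes 2 rose and 8 fell (1 and 12 after scaling). Their summed share was 0.742 and 0.76 percent at 0 min and 0.751 and 0.845 percent at 30 min, ranges that overlap. At 5 min it was 0.315 and 0.322 percent. Acetyl-coenzyme A synthetase, ACS1, had 1106 and 1143 FPKM at 0 min and 43.8 and 38.8 FPKM at 30 min (log2 change -4.74, SE 0.21, adjusted p = 5.6e-06). Malate synthase, MLS1, of the glyoxylate cycle, went from 283 and 397 to 7.51 and 7.93 FPKM (log2 change -5.27, SE 0.33), and both copies of the lactate and acetate importer JEN1 fell, TBIG005434 from 107 and 149 to 6.57 and 9.74 FPKM (log2 change -3.82, SE 0.27) and TBIG001542 from 107 and 113 to 11.2 and 16.6 FPKM (log2 change -2.93, SE 0.23). Isocitrate lyase, ICL1, the other enzyme of the glyoxylate cycle, stayed abundant at 1428 and 1224 FPKM and then 974 and 1147 FPKM and was not called. RGI1, a respiratory growth gene, had 3571 and 3232 FPKM at 0 min and 51.1 and 59.9 FPKM at 30 min (log2 change -5.92, SE 0.17). The TCA cycle had 4 of 24 genes higher and 4 lower (0 and 11 after scaling) and kept its share, 1.35 and 1.35 percent at 0 min and 1.43 and 1.32 percent at 30 min. The TCA cycle list had 0 higher without 30 min replicate 1 and 2 higher without 0 min replicate 1, and 0 lower without 0 min replicate 1 or 30 min replicate 2 and 1 lower without 0 min replicate 2 or either 5 min library or 30 min replicate 1.

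Genes of mitochondrial ribosomal proteins rose at 30 min wherever they were called. Of 66 tested genes 56 rose and 0 fell (35 and 0 after scaling), with a median 0.86 above the median over all genes, and the summed share went from 0.321 and 0.243 to 0.637 and 0.662 percent. MRPL7, of the large subunit, had 22.1 and 20.1 FPKM at 0 min and 109 and 115 FPKM at 30 min (log2 change 2.35, SE 0.19, adjusted p = 9.9e-05). YML6 went from 42.3 and 35.9 to 175 and 181 FPKM (log2 change 2.16, SE 0.18), MRPL40 from 17.8 and 11.1 to 81.9 and 77.2 FPKM (log2 change 2.42, SE 0.28), and NAM9, of the small subunit, from 46.3 and 34.3 to 168 and 144 FPKM (log2 change 1.93, SE 0.21). The list median was 0.23 at 15 min, when that of all genes was 0.39, and 1.42 at 30 min, when that of all genes was 0.56. Over all genes 22.8 percent were called higher at 15 min than at 0 min, and 9.49 percent higher at 30 min than at 15 min. For this list the calls at 15 min against 0 min were 6 higher and 0 lower as deposited. After median-ratio scaling they were 2 higher and 5 lower, so their direction turns with the scaling. At 30 min 46 members were called higher than at 15 min (30 after scaling), a count that was 6 without 30 min replicate 1, 11 without 30 min replicate 2, 28 without 15 min replicate 2 and 30 without either 5 min library. At 15 min 6 members had been called higher than at 0 min, 1 without 15 min replicate 2, 3 without either 5 or 30 min library and 12 without 0 min replicate 1 or 15 min replicate 1.

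The respiratory complexes that these ribosomes help to build did not follow as a list, with 16 of 74 genes higher and 7 lower (6 and 10 after scaling). The respiratory chain and ATP synthase list had 9 higher without 30 min replicate 2. Assembly and cofactor genes were among the risers. ATP11 and ATP12, chaperones for assembly of the ATP synthase, went from 59.2 and 45.3 to 167 and 132 FPKM (log2 change 1.5, SE 0.2) and from 37.8 and 32.7 to 99.1 and 100.1 FPKM (log2 change 1.48, SE 0.17). COQ1, of ubiquinone synthesis, went from 40.2 and 35.4 to 183 and 140.4 FPKM (log2 change 2.06, SE 0.2). CBP4, an assembly factor of the cytochrome bc1 complex, fell from 229.9 and 159 to 39.3 and 49.7 FPKM (log2 change -2.09, SE 0.23).

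By calls, but not by share of summed FPKM, cytosolic translation showed a split between its ribosome and its factors. The 80 cytosolic ribosomal protein genes held 19.3 and 18.4 percent of summed FPKM at 0 min and 21.3 and 19.0 percent at 30 min, ranges that overlap, with 8 higher and 2 lower as deposited and 4 and 17 after median-ratio scaling, where the balance turns to falls. The cytosolic ribosomal protein list had 5 higher without either 5 min library or 30 min replicate 1 and 14 higher without 0 min replicate 2, and 0 lower without either 30 min library and 7 lower without 0 min replicate 2. The risers were mostly genes of low level for this class. RPL34A had 178 and 102 FPKM at 0 min and 1118 and 1554 FPKM at 30 min (log2 change 3.28, SE 0.29), RPL21A 143 and 88.2 and then 694 and 608 FPKM (log2 change 2.52, SE 0.24), and RPS1B 47.7 and 117 and then 554 and 585 FPKM (log2 change 2.91, SE 0.52). Another gene named RPL21A changed by 0.23 and was not called. Translation factors had 24 of 41 genes higher and 1 lower (15 and 4 after scaling). Their share of summed FPKM was 3.5 and 3.01 percent at 0 min and 3.45 and 3.18 percent at 30 min, ranges that also overlap. PRT1, a scaffold subunit of initiation factor eIF3, went from 79.2 and 63.6 to 271 and 234 FPKM (log2 change 1.81, SE 0.18), and SUP35, the release factor that ends translation, from 51 and 43.1 to 184 and 144 FPKM (log2 change 1.77, SE 0.23).

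Of the 38 aminoacyl-tRNA synthetases, which load amino acids onto tRNA, 22 rose and 0 fell (9 and 1 after scaling). The aminoacyl-tRNA synthetase list had 10 higher without 30 min replicate 1. The threonine enzyme THS1 had 36.4 and 49 FPKM at 0 min and 126 and 113 FPKM at 30 min (log2 change 1.48, SE 0.2), and the mitochondrial serine enzyme DIA4 had 14.8 and 9.71 and then 56.2 and 46.8 FPKM (log2 change 2.01, SE 0.26). Amino acid synthesis had 41 of 90 genes higher and 6 lower (24 and 15 after scaling) and went from 1.25 and 1.33 to 1.81 and 1.62 percent of summed FPKM. Here too the rise came after 15 min, when the share was still 1.13 and 1.09 percent. Against 15 min 37 members were higher at 30 min (31 after scaling and 15 without 30 min replicate 1). In lysine synthesis, homocitrate synthase, LYS1 (TBIG005945, 1 of 3 genes of that name, of which 2 rose), had 80.5 and 125 FPKM at 0 min and 733 and 632 FPKM at 30 min (log2 change 2.75, SE 0.29, adjusted p = 0.00031), and homoaconitase, LYS4, had 29.7 and 30 and then 145 and 175 FPKM (log2 change 2.38, SE 0.2). Aspartokinase, HOM3, the entry to threonine and methionine, went from 14.4 and 12.7 to 80.2 and 66.1 FPKM (log2 change 2.35, SE 0.22), and the branched-chain aminotransferase gene BAT2 from 17.4 and 14.7 to 114 and 122 FPKM (log2 change 2.81, SE 0.28). LEU1, of leucine synthesis, fell instead, from 136 and 105 to 24.6 and 26.7 FPKM (log2 change -2.17, SE 0.2).

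**Figure D4:**
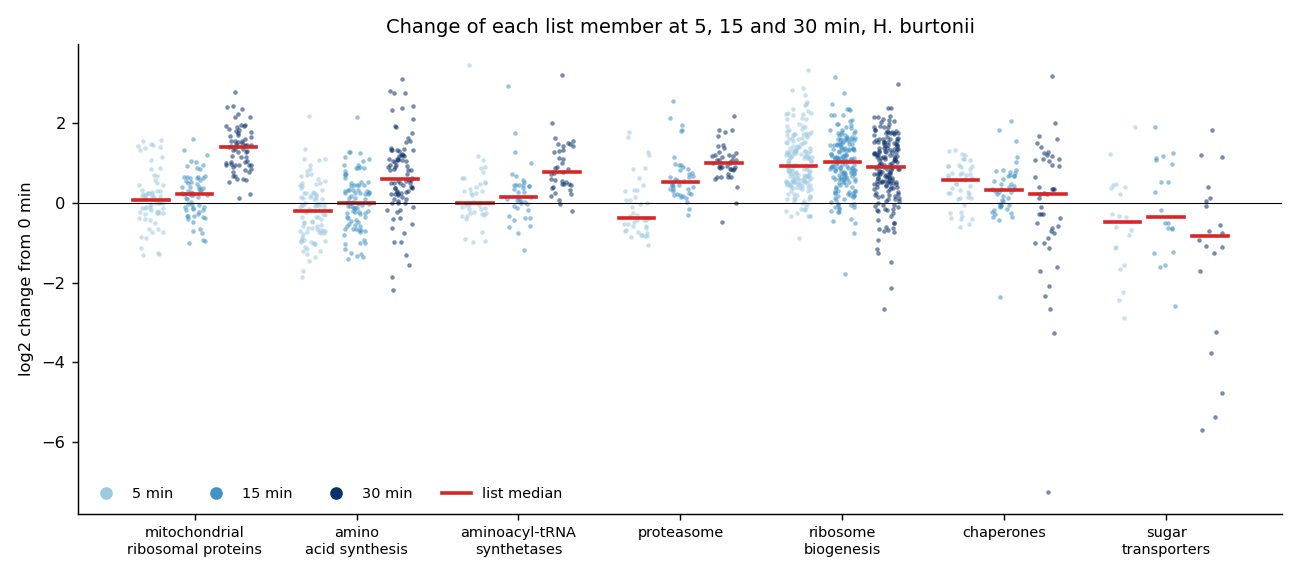
Log2 change from 0 min of each tested member (points) of 7 gene lists at 5, 15 and 30 min in H. burtonii, with the list median as a bar. The 3 comparisons share the 0 min libraries. The medians of mitochondrial ribosomal proteins, amino acid synthesis and aminoacyl-tRNA synthetases lie near 0 at 5 and 15 min and at 1.42, 0.61 and 0.77 at 30 min, while that of ribosome biogenesis is 0.92 at 5 min already. The median of all genes, not drawn, was 0.07, 0.39 and 0.56 at the 3 times, so that of amino acid synthesis at 30 min is 0.05 above it.

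Ribosome biogenesis had 73 of 174 genes higher and 5 lower (36 and 14 after scaling), with a median 0.34 above the median over all genes. The ribosome biogenesis list had 37 higher without 30 min replicate 1 and 48 higher without 30 min replicate 2, and 2 lower without 30 min replicate 2. At 15 min 79 genes of the list had already been called higher (42 after scaling, 26 without 15 min replicate 2 and 50 without either 5 min library), and the list median was 1.03 at 15 min and 0.9 at 30 min, against 0.39 and 0.56 for all genes. Over all genes 22.8 percent were called higher and 6.93 percent lower at 15 min than at 0 min, as deposited. The rRNA helicase gene RRP3 had 6.82 and 6.53 FPKM at 0 min and 34.2 and 28.1 FPKM at 30 min (log2 change 2.06, SE 0.22), and BFR2, a processome component, had 12 and 8.41 and then 46.1 and 45.3 FPKM (log2 change 2.08, SE 0.24). TIF6, which keeps the large subunit apart until it is mature, went from 213 and 129 to 614 and 630.3 FPKM (log2 change 1.9, SE 0.24), with 131 and 153 FPKM at 15 min. The nucleolar gene NOP13 fell, from 93.8 and 109 to 20.1 and 24.4 FPKM (log2 change -2.14, SE 0.26). RNA polymerases I and III, which transcribe ribosomal and transfer RNA, had 15 of 32 subunit genes higher and 0 lower (9 and 2 after scaling). The RNA polymerase list had 8 higher without 30 min replicate 1. RPA12, of polymerase I, went from 4.32 and 9.73 to 73.2 and 57.4 FPKM (log2 change 3.12, SE 0.57).

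Among protein turnover and transport lists, the proteasome and the ubiquitin pathway had a larger share called higher, as deposited, than the 37.0 percent of all genes. Autophagy, vacuolar and secretory genes had a smaller one. The proteasome had 33 of 41 genes higher and 0 lower, but 7 and 1 after median-ratio scaling and 20 and 0 after quantile scaling. Over all genes 16.9 percent were called higher after median-ratio scaling and 16.3 percent after quantile scaling. The 7 of 41 were thus near the share of all genes, and the 20 of 41 above it. As deposited, the list median was 0.44 above the median over all genes. The list's summed share was 0.699 and 0.802 percent at 0 min and 1.4 and 1.36 percent at 30 min. The proteasome list had 17 higher without 30 min replicate 2 and 19 higher without 30 min replicate 1. RPT5, an ATPase of the regulatory particle, had 219 and 281 FPKM at 0 min and 740.2 and 621 FPKM at 30 min (log2 change 1.45, SE 0.18, adjusted p = 0.00062), and PRE2, a catalytic subunit of the core, 353 and 327 and then 763 and 771 FPKM (log2 change 1.17, SE 0.14). In the ubiquitin pathway 36 of 67 rose and 3 fell (19 and 7 after scaling). Risers included the adaptor of the Rsp5 ligase BUL1 (TBIG002746), from 3.28 and 3.97 to 25.7 and 19.7 FPKM (log2 change 2.35, SE 0.28), and the ubiquitin protease gene UBP3, from 33.4 and 30 to 148 and 113 FPKM (log2 change 2.0, SE 0.21). A second gene named BUL1 fell (log2 change -0.99). The ubiquitin pathway list had 21 higher without 30 min replicate 1 and 23 higher without 30 min replicate 2. Autophagy had 10 of 37 higher and 4 lower (3 and 7 after scaling). The autophagy list had 5 higher without 30 min replicate 2 and 6 higher without 30 min replicate 1, and 0 lower without either 0 min library or 30 min replicate 1 and 1 lower without either 5 min library or 30 min replicate 2. ATG8, whose product coats the autophagosome membrane, went from 30.1 and 50.4 to 190.1 and 278 FPKM (log2 change 2.53, SE 0.46), and ATG11, a scaffold of selective autophagy, from 9.27 and 11.9 to 43.1 and 49.7 FPKM (log2 change 2.04, SE 0.22). Vacuolar ATPase and protease genes numbered 7 higher and 1 lower of 35 (2 and 5 after scaling), and secretory transport 18 higher and 2 lower of 76 (5 and 5). The vacuolar ATPase and proteases list had 15 higher without 0 min replicate 2. The secretory transport list had 8 higher without 30 min replicate 1, 9 higher without 30 min replicate 2 and 31 higher without 0 min replicate 2. In secretory transport SEC18, which recycles the membrane fusion machinery, went from 32.7 and 62.1 to 168 and 173 FPKM (log2 change 1.9, SE 0.31), and arf1 (TBIG001295), of vesicle budding, fell from 179.7 and 141 to 41.2 and 32.4 FPKM (log2 change -2.1, SE 0.26).

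Sterol synthesis genes fell more often than they rose. Of 35 ergosterol genes 4 rose and 10 fell (1 and 14 after scaling). The ergosterol synthesis list had 2 higher without 30 min replicate 2. The oxidase gene ERG25 had 1238 and 1452 FPKM at 0 min and 73.1 and 90 FPKM at 30 min (log2 change -4.03, SE 0.2, adjusted p = 9.5e-06), and squalene monooxygenase, ERG1, fell in both copies, TBIG004942 from 493 and 363 to 65.4 and 76.9 FPKM (log2 change -2.56, SE 0.21) and TBIG004941 from 211 and 202 to 34.1 and 36 FPKM (log2 change -2.52, SE 0.2). These enzymes use oxygen, and fission yeast regulates such genes through the factor Sre1. Here sre1 (TBIG005586) went from 408 and 397 to 45.1 and 47 FPKM (log2 change -3.1, SE 0.21), and UPC2 (TBIG004952), a sterol regulator of other yeasts, from 43.8 and 34.8 to 9.83 and 8.26 FPKM (log2 change -2.0, SE 0.26). Other copies differed: the second genes of the sre1 and ERG25 names changed by 0.69 and 0.29 and were not called. Of 4 genes named UPC2 1 was called higher and 2 lower (log2 changes of -2.38 to 0.99).

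Fatty acid and sphingolipid synthesis had 12 of 26 genes higher and 5 lower (4 and 6 after scaling). The fatty acid and sphingolipid synthesis list had 4 higher without either 30 min library. One of the 2 genes named FAS2, a fatty acid synthase subunit, fell from 965 and 953 to 319 and 219 FPKM (log2 change -1.85, SE 0.2) and acetyl-CoA carboxylase, ACC1 (TBIG002609), from 267 and 308 to 102 and 71.4 FPKM (log2 change -1.74, SE 0.2). The elongase gene SUR4, which makes the very long chains of sphingolipids, rose from 192 and 142 to 475 and 526 FPKM (log2 change 1.6, SE 0.18), and the sphingoid base kinase gene LCB4 from 2.04 and 2.32 to 28.6 and 51.7 FPKM (log2 change 3.64, SE 0.46). Phospholipid genes had 14 of 34 higher and 2 lower (7 and 2 after scaling). The phospholipid synthesis list had 8 higher without 30 min replicate 1. INO1, which makes inositol, fell from 76.6 and 53.9 to 5.05 and 3.87 FPKM (log2 change -3.59, SE 0.28, adjusted p = 8.4e-05), while CDS1, at the branch to CDP-diacylglycerol, rose from 67.9 and 53.5 to 229 and 243 FPKM (log2 change 1.95, SE 0.22). Peroxisomal beta-oxidation had 5 of 38 genes higher and 5 lower (2 and 14 after scaling, where falls outnumber rises). The beta-oxidation and peroxisome list had 2 higher without either 30 min library, and 2 lower without 30 min replicate 1 and 3 lower without 30 min replicate 2. The acyl-CoA oxidase gene POX2 fell from 221 and 278 to 24.6 and 22.9 FPKM (log2 change -3.33, SE 0.22).

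Several uptake genes for metals, phosphate and nitrogen sources fell steeply. The iron, copper and haem list had 8 of 45 higher and 11 lower (2 and 13 after scaling). The iron, copper and haem list had 3 higher without 30 min replicate 1, 4 higher without 30 min replicate 2 and 5 higher without either 5 min library. The copper importer gene CTR1 (chromosome 1, 1794386 to 1795138) had 1139.5 and 1691 FPKM at 0 min, 54.9 and 64.9 FPKM at 15 min and 28 and 33.5 FPKM at 30 min (log2 change -5.46, SE 0.28, adjusted p = 9.5e-06). The iron oxidase FET3 and its partner permease FTR1 take up iron as a pair and need copper. FET3 (TBIG002222) went from 59.9 and 49.3 to 1.16 and 1.21 FPKM (log2 change -4.66, SE 0.33) and FTR1 (TBIG001982) from 97.1 and 48.2 to 2.5 and 3.12 FPKM (log2 change -4.19, SE 0.34). The other gene named FET3 changed by 0.25 and the other named FTR1 by -0.19, and neither was called. HEM13, of haem synthesis, went from 783 and 637 to 89.6 and 101 FPKM (log2 change -2.88, SE 0.19). The zinc transporter gene ZRT1 (TBIG002150) moved the opposite way, from 9.47 and 7.89 to 94.1 and 108 FPKM (log2 change 3.4, SE 0.2).

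For phosphate, 6 of 22 genes rose and 7 fell (3 and 8 after scaling). The phosphate uptake and storage list had 3 higher without either 30 min library. The glycerophosphoinositol transporter gene GIT1 (TBIG002572) had 253 and 200.4 FPKM at 0 min and 14.6 and 18.3 FPKM at 30 min (log2 change -3.71, SE 0.27). The phosphate transporter gene PHO84 (TBIG002686) had 464 and 490.2 FPKM at 0 min, 29.5 and 57.5 FPKM at 15 min and 134 and 102 FPKM at 30 min (log2 change -2.02, SE 0.31). PHO84 was thus below its starting level but above its 15 min level (1.48 from 15 to 30 min, adjusted p = 0.019), a call lost without 30 min replicate 1 (1.29) or 2 (1.67). In amino acid and peptide uptake 12 of 51 rose and 13 fell (7 and 19 after scaling). The amino acid and peptide uptake list had 7 higher without 30 min replicate 1. The oligopeptide transporter gene OPT2 (TBIG004746) went from 254 and 314 to 3.34 and 2.05 FPKM (log2 change -6.29, SE 0.36). The peptide transporter gene PTR2 (TBIG000333) went from 712 and 868 to 64.5 and 42.7 FPKM (log2 change -3.88, SE 0.27). Another gene named PTR2 changed by -0.1 and was not called. The proline permease gene put4 (TBIG001334) went from 166 and 247 to 8.66 and 4.33 FPKM (log2 change -4.83, SE 0.42).

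The wall list had 30 of 64 genes higher and 5 lower (16 and 12 after scaling). The cell wall list had 18 higher without 30 min replicate 1. KRE6 (TBIG004878), which acts in beta-glucan synthesis, had 7.69 and 7.71 FPKM at 0 min and 182 and 142 FPKM at 30 min (log2 change 4.22, SE 0.19, adjusted p = 6.4e-06). The mannoprotein gene PIR3 (TBIG003654) went from 111 and 107 to 1591 and 1555 FPKM (log2 change 3.84, SE 0.17), and PGA4, a glucan-remodelling enzyme, from 207 and 225 to 1106 and 843 FPKM (log2 change 2.16, SE 0.18). CWP1, another mannoprotein, was listed at 0 in both 0 min libraries and had 53.3 and 33.2 FPKM at 30 min. The chitinase gene CHT2, which helps cells separate, fell from 375 and 312 to 57.4 and 63.9 FPKM (log2 change -2.48, SE 0.19). Hyphal and adhesion markers of Candida albicans were few, and 2 of 9 genes of that list rose and 1 fell (0 and 1 after scaling). The adhesin gene ALS3 had 123 and 80.3 FPKM at 0 min and was listed at 0 in both 30 min libraries. Another gene named ALS3 changed by -0.3 and was not called. Sporulation and mating markers had 6 of 18 higher and 1 lower (5 and 2 after scaling). As deposited, neither share is above that of all genes, 37.0 percent higher and 11.1 percent lower. NDT80, the switch into meiosis in budding yeast, had 2.12 and 1.08 FPKM at 0 min and 17.5 and 19.6 FPKM at 30 min (log2 change 2.94, SE 0.35), and SPS2, a sporulation gene, 1.89 and 2.84 and then 12.7 and 12.7 FPKM (log2 change 2.04, SE 0.35). Both stayed below 20 FPKM.

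Chaperones and antioxidants each held large rises and large falls. Of 46 chaperone genes 16 rose and 14 fell (9 and 18 after scaling), and of 36 antioxidant and thiol genes 12 rose and 8 fell (6 and 11). The antioxidants and thiol redox list had 7 higher without 30 min replicate 2. HSP31 (TBIG004039), a chaperone-like protein that removes methylglyoxal in budding yeast, had 2063 and 1408 FPKM at 0 min and 12806 and 18954 FPKM at 30 min (log2 change 3.19, SE 0.28, adjusted p = 0.00015), which made it one of the 10 most abundant named genes. SIS1, a J-domain chaperone, fell from 1240.4 and 1179.7 to 373 and 428 FPKM (log2 change -1.6, SE 0.16), and the mitochondrial disaggregase gene HSP78 fell in both copies, TBIG002280 from 821 and 1126 to 234 and 215 FPKM (log2 change -2.09, SE 0.22) and TBIG002281 from 539 and 621 to 109 and 117 FPKM (log2 change -2.34, SE 0.16). Among glutathione transferases GTT1 (TBIG001229) rose from 71.1 and 65.7 to 309 and 379.8 FPKM (log2 change 2.31, SE 0.2) and the more abundant GTT2 (TBIG006047) fell from 3208 and 3591 to 549 and 553 FPKM (log2 change -2.62, SE 0.15). At 30 min their levels were of the same order. A manganese superoxide dismutase gene, SOD2 (TBIG002547), rose from 1024 and 823 to 3032 and 3727 FPKM (log2 change 1.87, SE 0.23), and the mitochondrial peroxiredoxin gene PRX1 (TBIG000873) fell from 963 and 1035 to 304 and 281 FPKM (log2 change -1.77, SE 0.15). Each of these names has another gene called the opposite way, SOD2 at -2.01 and PRX1 at 1.53.

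The general stress and glucose starvation list likewise had 4 of 16 higher and 5 lower (4 and 7 after scaling). MSC1, a stress-induced gene of budding yeast, rose from 176 and 164 to 1346 and 1579.8 FPKM (log2 change 3.1, SE 0.19). TMA10, a ribosome-associated stress gene, fell from 5575 and 5321 to 123 and 95.2 FPKM (log2 change -5.64, SE 0.19), and the nicotinamidase gene PNC1 from 527 and 567 to 117 and 120.1 FPKM (log2 change -2.19, SE 0.16). The members of this list thus moved both ways in the same libraries. The separate osmotic stress set had 26 of 42 higher and 6 lower (23 and 10 after scaling). It was chosen with earlier results of these libraries known, and its count is no independent evidence. The set had 3 lower without 30 min replicate 1.

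Histone genes fell or were not called, with 0 of 9 higher and 3 lower (0 and 7 after scaling), and their share of summed FPKM was 1.22 and 1.81 percent at 0 min and 0.788 and 0.709 percent at 30 min. The histone list had 5 lower without 0 min replicate 1. Both histone H3 genes named HHT2 fell, TBIG004271 from 4059.5 and 4849 to 1406 and 1351 FPKM (log2 change -1.69, SE 0.18) and TBIG003069 from 5093 and 4461 to 1493 and 1930.2 FPKM (log2 change -1.49, SE 0.21). One histone gene named HTA2 fell from 1162 and 997 to 303 and 444 FPKM (log2 change -1.55, SE 0.24), and the other changed by -0.43 and was not called. Cell cycle and replication genes had 17 of 66 higher and 6 lower (8 and 11 after scaling). The cell cycle and replication list had 8 higher without 30 min replicate 1 and 11 higher without 30 min replicate 2, and 0 lower without 30 min replicate 1, 1 lower without 30 min replicate 2 and 3 lower without either 0 min library. The replication factor gene PSF1 went from 10.5 and 17.7 to 48.3 and 39.5 FPKM (log2 change 1.61, SE 0.28) and DBF4, which activates the kinase that fires replication origins, from 5.74 and 9.52 to 24.6 and 26.5 FPKM (log2 change 1.65, SE 0.33). The G1 cyclin gene CLN3 was listed at 0 in both 0 min libraries and had 7.88 and 12.3 FPKM at 30 min. DNA-binding regulators had 15 of 37 higher and 6 lower (5 and 7 after scaling), including GLN3, of nitrogen control, which rose from 4.03 and 3.21 to 18 and 15.8 FPKM (log2 change 1.96, SE 0.26). The regulator list had 7 higher without 30 min replicate 2 and 8 higher without 30 min replicate 1. Of 11 housekeeping genes 4 were called higher and 1 lower as deposited, and 0 and 3 after median-ratio scaling, so their direction turns with the scaling. The housekeeping list had 1 higher without 30 min replicate 1 and 2 higher without 0 min replicate 1 or 30 min replicate 2.

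The set of most abundant named genes was partly exchanged. At 0 min the highest levels were those of ADH1, TDH1 and GPD, the last 2 encoding glyceraldehyde-3-phosphate dehydrogenase. TDH1 (TBIG004709) had 35746 and 35338 FPKM and GPD (TBIG004708) had 40598 and 31419.7 FPKM at 0 min. By 30 min they had 1514 and 1198 and 1484 and 1590.4 FPKM. These are neighbouring gene models and may share reads. A further glyceraldehyde-3-phosphate dehydrogenase gene (TBIG002932) had the highest mean level at 30 min, 20492 and 23030.0 FPKM after 37589 and 30729 FPKM at 0 min. RTC3 and HSP31 joined the 10 most abundant at 30 min, RTC3 going from 5456 and 5176 to 14420.3 and 19942 FPKM (log2 change 1.67, SE 0.2). Aldolase, FBA1, had 16716 and 18871 FPKM and then 18297 and 16673 FPKM, with ranges that overlap.

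Calls were also counted by starting level, which enters the change itself, so that low 0 min values favour rises and high ones falls by construction. Of 5 equal groups of genes by level, in that with the lowest mean FPKM at 0 min (up to 7.63) 45.2 percent were called higher and 2.23 percent lower. In the highest group (from 119) 24.2 percent were called higher and 28.1 percent lower. The median log2 change was 1.03 in the lowest group and 0.08 in the highest. Low starting values go with the 0 min libraries, whose rough depth estimates were the lowest, and with genes that had a value of 0 there, and the part of depth was not tested. By span the share called higher ran from 28.6 percent in the shortest of 5 groups to 42.4 percent in the middle group.

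Many names occur on more than one gene, and copies did not always move alike. Of 514 names with 2 or more tested copies, 201 had at least 2 copies called, and 42 had copies called in opposite directions, 33 of them with each copy at 10 FPKM or more at one of the 2 times. The widest gap was for PGA12, a phosphomutase-like name. TBIG003757 (chromosome 4, 1067260 to 1068249) had 4.78 and 2.73 FPKM at 0 min and 829 and 1171 FPKM at 30 min (log2 change 7.73, SE 0.29), and TBIG002342 (chromosome 2, 1979311 to 1979775) had 193 and 189 and then 9.54 and 12.6 FPKM (log2 change -4.0, SE 0.19). For invertase, the rising INV copy given above contrasted with TBIG002352 (chromosome 3, 10837 to 12375), which fell from 1221 and 1518 to 419 and 409 FPKM (log2 change -1.71, SE 0.16). At 0 min the falling invertase copy was the higher and at 30 min the rising one was. GAP1, the general amino acid permease, had one copy (TBIG005704) at 13 and 10 and then 55 and 38.9 FPKM (log2 change 1.93, SE 0.27) and another (TBIG002356) at 192 and 196 and then 6.74 and 12.6 FPKM (log2 change -4.25, SE 0.34). Which reads a close copy received cannot be told from FPKM.

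Calls were spread over the genome. The share called higher ran from 32.1 percent on chromosome 7 to 41.9 percent on chromosome 8, and the share called lower from 9.01 percent on chromosome 2 to 14.7 percent on chromosome 7. Both strands had like shares, 36.9 and 37.1 percent higher. Neighbouring genes called higher formed 35 runs of at least 5 genes, and genes called lower formed 2, against backgrounds of 37.0 and 11.1 percent. The longest run held 13 genes on chromosome 4 from 479930 to 509116, from CIR2, of electron transfer, to the kinase gene psk1, with log2 changes of 1.09 to 3.44. In it OTU2 went from 14.6 and 13.3 to 85.7 and 92.8 FPKM (log2 change 2.6, SE 0.24) and CYC3, which attaches haem to cytochrome c, from 31.3 and 41.9 to 129.7 and 108 FPKM (log2 change 1.68, SE 0.22). Coordinates are as the table gives them, and no source names the genome build.

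The comparison of 30 with 15 min asks what was still moving. It called 981 genes (16.2 percent), 574 higher (9.49 percent) and 407 lower (6.73 percent), or 284 higher and 483 lower after median-ratio scaling and 376 and 501 after quantile scaling. Without 30 min replicate 1 the calls were 78 higher and 162 lower, without 30 min replicate 2 143 and 206, without 15 min replicate 2 208 and 227, without 5 min replicate 1 265 and 258 and without 5 min replicate 2 266 and 258. The largest rises among genes of 10 FPKM or more included pi, named after a papain inhibitor, which had 31 and 34.4 FPKM at 15 min and 513 and 437 FPKM at 30 min (3.82, SE 0.35, adjusted p = 0.0008). It had 119 and 53 FPKM at 0 min, so the 15 min level was a low point. HOM3 had 10.4 and 8.68 FPKM at 15 min (2.82 from 15 to 30 min, SE 0.22), and rds1 28.8 and 16.7 FPKM at 15 min and 152 and 202 FPKM at 30 min (2.94, SE 0.31). Of the falls, the flavohaemoprotein gene YHB1, which detoxifies nitric oxide, went from 403 and 396 FPKM at 15 min to 23.4 and 19.8 FPKM at 30 min (-4.15, SE 0.16), araE (TBIG003019) from 566 and 1002 to 45.2 and 39.6 FPKM (-4.12, SE 0.33) and HGT1 (TBIG006104), a glucose transporter, from 1413 and 1790.0 to 83.1 and 105 FPKM (-4.08, SE 0.19). By list, 13 of 38 aminoacyl-tRNA synthetases rose from 15 to 30 min (5 after scaling, and 1 without 30 min replicate 1, 4 without 30 min replicate 2, 5 and 7 without 15 min replicate 2 or 1, 6 when a 5 min library was dropped). Falls outnumbered rises among sugar transporters, 10 of 20 (10 after scaling, 6 without either 30 min library or 15 min replicate 2), and among chaperones, 13 of 46 (15 after scaling).

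Of the 2236 genes higher at 30 min, 1113 were called higher at 15 min and 415 at 5 min, and 144 were called lower at 5 min. Of the 671 lower, 323 were called lower at 15 min and 214 at 5 min. These comparisons share the 0 min libraries. Over all genes 22.8 percent were called higher and 6.93 percent lower at 15 min, and 11.2 and 11.1 percent at 5 min. Against 5 min, a comparison that uses the same 30 min libraries and so is no independent support, 2872 genes (47.5 percent) were called at 30 min, 2155 higher (35.6 percent) and 717 lower (11.9 percent). The calls numbered 1780 and 1654 without 5 min replicate 1 or 2 and 1865 without 30 min replicate 1. After median-ratio scaling 1019 were higher and 1121 lower, and after quantile scaling 1207 and 1023. The proteasome had 28 of 41 genes higher than at 5 min and 0 lower (21 and 0 after scaling). Chaperones had 13 of 46 higher and 20 lower (4 and 22 after scaling, and 6 or 7 higher without any 1 of the 5 and 30 min libraries). UGA1, for example, had 12.2 and 11 FPKM at 5 min (4.3 from 5 to 30 min, SE 0.22).

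The last comparison asks whether the 30 min change of H. burtonii differed from that of H. pseudoburtonii (strain KJS14, also wild type from Nuruk, sampled at the same times with 2 libraries each). Genes were paired by a Swiss-Prot accession found once in each species, and 3219 pairs were tested. Each species is 1 strain with its own libraries, and the labels name no batch. Strain, species and any difference in preparation cannot be told apart. The tables were normalized separately, so levels set across species are as deposited. The change differed for 1174 pairs (36.5 percent), being more positive in H. burtonii for 755 (23.5 percent) and more negative for 419 (13.0 percent). The median difference over all pairs was 0.28. Without H. pseudoburtonii 30 min replicate 1 or 2 the pairs called numbered 667 and 733.

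Among mitochondrial ribosomal proteins 60 of 65 pairs changed more positively in H. burtonii, with a median difference of 2.4. MRPL7 had 322 and 314 FPKM at 0 min and 103 and 138 FPKM at 30 min in H. pseudoburtonii, against the rise given above in H. burtonii (difference 3.76, SE 0.28, adjusted p = 2.9e-06). The 30 min levels of both species were thus alike as deposited, and the 0 min levels were far apart. YML6 had 218 and 213 and then 104 and 136 FPKM in H. pseudoburtonii (difference 3.02, SE 0.3), and PRT1, of translation initiation, 306 and 322 and then 160.4 and 147 FPKM (difference 2.84, SE 0.26). The largest differences of this sign included LOS1, which exports tRNA from the nucleus, with 1.11 and 4.12 FPKM at 0 min and 24.8 and 45.8 FPKM at 30 min in H. burtonii and 93.4 and 93 and then 40 and 43.9 FPKM in H. pseudoburtonii (difference 4.54, SE 0.52). ORT1, the mitochondrial ornithine carrier, had 3.16 and 0.892 and then 62.3 and 50.9 FPKM in H. burtonii and 71.5 and 85.5 and then 106 and 82.3 FPKM in H. pseudoburtonii (difference 4.1, SE 0.5).

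Differences of the opposite sign included acetate and proline genes. ACS1, whose fall in H. burtonii is given above, had 7.8 and 6.96 FPKM at 0 min and 104 and 81.8 FPKM at 30 min in H. pseudoburtonii (difference -8.22, SE 0.39, adjusted p = 1.5e-07). It moved in opposite directions in the species, without overlap between times in either. MLS1 had 51.9 and 56.2 and then 131 and 146 FPKM in H. pseudoburtonii (difference -6.61, SE 0.41), and of 12 pairs of the acetate list 10 changed more negatively in H. burtonii and 1 more positively. put4 had 3.61 and 5.57 and then 66.2 and 60.5 FPKM in H. pseudoburtonii (difference -8.37, SE 0.61), and TMA10 235 and 119.9 and then 1459 and 1305 FPKM (difference -8.67, SE 0.55). HMX1, a haem-binding protein, fell in H. burtonii from 115 and 183 to 27.4 and 27.4 FPKM and had 11.6 and 15.9 and then 843 and 892 FPKM in H. pseudoburtonii (difference -8.26, SE 0.5). Peroxisomal genes leaned the same way, with 10 of 17 pairs more negative in H. burtonii and 0 more positive, although without H. pseudoburtonii 30 min replicate 1 or 2 these were 6 and 5 pairs.

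**Figure D5:**
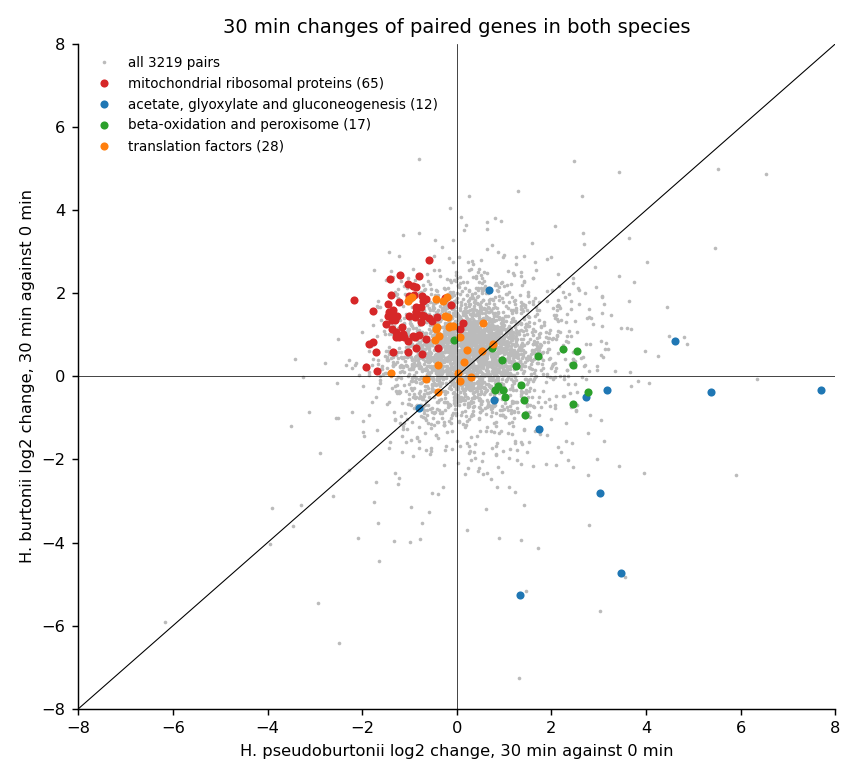
Log2 change from 0 to 30 min of 3219 paired genes in H. pseudoburtonii (horizontal axis) and H. burtonii (vertical axis), with the diagonal of equal change. Mitochondrial ribosomal proteins lie mostly above the diagonal, positive in H. burtonii and negative in H. pseudoburtonii, and genes of acetate use and of the peroxisome lie mostly below it.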

How the data were processed

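RNA-seq values of 16 libraries came as 1 gene table per species, with FPKM as deposited by the authors and no counts. Per the submitters' processing notes, TopHat2 2.1.1, Cufflinks 2.2.1, CASAVA 1.8.2 and FastQC 0.11.8 were used. For their order and settings, the strandedness, the genome build and the annotation, nothing is stated (not given in the sources used here). Gene names and coordinates are those of the table, where 5008 of 6115 H. burtonii genes carry a name. No genome or sequence table came with the series, so no sequence is printed.

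The filter was at least 1 FPKM in 2 or more of a species' 8 libraries, which 6047 H. burtonii genes passed, and log2(FPKM + 1) was fitted with limma 3.58.1 in R 4.3.3, with a group per time over all 8 libraries of the species and a trend in the prior variance. Changes are on this log2(FPKM + 1) scale, which understates those of low genes. A gene was called at an adjusted p under 0.05 (Benjamini-Hochberg, over all genes tested). The same fit gave 30 against 15 and 5 min. The species difference was an interaction over 3219 tested pairs of 3235 found. Shares, copies and runs were described with numpy 2.4.6 and pandas 2.3.3 in Python 3.11.15 and drawn with matplotlib 3.10.9, without a test. The fit was checked on simulated data.

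The members, the 50 gene lists and the tests were chosen with earlier results of these data known. Lists were matched by gene name and corrected from the annotation. Named genes are drawn from the 15 largest rises and 15 largest falls with a mean of at least 10 FPKM, the 5 smallest adjusted p of each list, an osmotic stress set, the 10 most abundant genes at either time, the 5 largest changes from 15 to 30 min each way, the 6 widest species differences each way, the 6 widest gaps between copies and the 3 longest runs. The text leaves many of them out. Alternatives were a 10 FPKM filter, no filter, scaling by median ratios or by quantiles, pseudocounts of 0.1 and 10, no trend, a replicate block, the 0 and 30 min libraries alone and each library left out. List counts of the other comparisons under scaling and left-out libraries were added after the data were seen.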

Additional observations from a re-analysis of the deposited data

Results flagged for a closer look

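The results singled out here are pairs of genes whose 30 min log2 change in H. burtonii differed from that in H. pseudoburtonii by the interaction test of limma. Each species is 1 strain with its own libraries, so strain and species cannot be told apart. The labels name no batch, and a difference in preparation between the species cannot be told apart either.

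Of the 10 pairs named in the text 5 changed more positively in H. burtonii. MRPL7 changed by 2.35 in H. burtonii and -1.4 in H. pseudoburtonii, a difference of 3.76. YML6, of the same ribosome, changed by 2.16 and -0.86 (difference 3.02), the initiation factor gene PRT1 by 1.81 and -1.02 (difference 2.84), the tRNA exporter gene LOS1 by 3.4 and -1.13 (difference 4.54) and the ornithine carrier gene ORT1 by 4.35 and 0.25 (difference 4.1).

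The other 5 changed more negatively in H. burtonii. ACS1 fell by 4.74 in H. burtonii and changed by 3.48 in H. pseudoburtonii, a difference of -8.22. The glyoxylate gene MLS1 changed by -5.27 and 1.34 (difference -6.61), the proline permease gene put4 by -4.83 and 3.55 (difference -8.37), TMA10 by -5.64 and 3.03 (difference -8.67) and HMX1 by -2.36 and 5.89 (difference -8.26).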

How the results depend on the processing

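Leaving out 1 library gave between 1783 and 3015 called genes for 30 against 0 min (2907 with all), 240 to 1239 for 30 against 15 min (981), 1654 to 3161 for 30 against 5 min (2872) and 667 to 1125 for the species difference (1174). The other alternatives kept these counts within 1.5 times and kept the sign of the median over all genes, except that median-ratio scaling took the 30 against 15 min median from 0.13 to -0.01. Both scalings moved the split of 30 against 0 min calls from 76.9 percent higher to 48.3 and 49.2 percent. Of 2650 values of 157 single-gene changes, 0 reversed and 2 lost their call, both for PHO84 from 15 to 30 min (1.29 and 1.67 without 30 min replicate 1 and 2). Without the 10 most abundant genes the 30 to 0 min ratio of the upper glycolysis share went from 0.723 to 0.445 and that of fermentation from 0.127 to 0.209. Of 1700 list counts of 30 against 0 min, 275 moved by more than 1.5 times. The single genes were named largely for large changes or small adjusted p in these same libraries. Few lost calls follow from that choice, so their stability cannot be set against that of the lists. The labels give only 2 replicate numbers and do not say whether equal numbers at different times mark the same culture. Deviations of same-numbered libraries correlated between -0.164 (15 and 30 min) and 0.459 (0 and 15 min), which does not settle it. The main fit held no term for the replicate number. With a replicate block the counts were 3014, 984, 2921 and 1191 in the order above. Depth is unknown, since the values are FPKM without counts, and its rough estimates were lowest at 0 min (0.541 and 0.464).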

Other observations

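Some large changes belong to genes for which the deposited table gives no description. Q59X49_CANAL (TBIG002167) had 110.4 and 85.1 FPKM at 0 min and 4748 and 7228 FPKM at 30 min (log2 change 5.9, SE 0.31), Q5ABT8_CANAL (TBIG000603) had 6.07 and 4.51 and then 232 and 221 FPKM (log2 change 5.18, SE 0.22), and of the genes that share the name Q59PV6_CANAL, TBIG003412 fell from 230.1 and 177 to 3.2 and 2.49 FPKM (log2 change -5.73, SE 0.5) while TBIG003426 rose from 42.5 and 31.4 to 211 and 131 FPKM (log2 change 2.16, SE 0.28). The 2 next longest runs of genes called higher held 9 genes each, on chromosome 5 from 1214297 to 1227834 (from GLN3 to AIM25, log2 changes of 0.81 to 2.00) and on chromosome 8 from 402461 to 412892 (log2 changes of 0.73 to 2.99).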
